A study of Mus musculus with 20 samples.

Results

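Epidermal cells were compared with dermal cells of the same age and genotype, both sorted from mouse back skin at embryonic day 13 (E13). Every RNA library whose labels give E13, the Het genotype and either tissue was taken, 3 of epidermis and 3 of dermis, which makes 6 of the 20 samples of the series. Of the 23432 genes counted in each library, 12975 passed the filter on low counts and were tested. The wider study concerns early epidermis of control and p63 knockout embryos, and p63 is the transcription factor that the gene Trp63 encodes. Its other libraries (12 with RNA counts in all) were used here only to check a fit.

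All 6 libraries carry the label {delta}Np63 -GFP KI-Het, so the dermal cells held the GFP knock-in allele as well, although their titles call them Ctrl. Single cells were released with collagenase and trypsin. The epidermal sort took GFP-positive cells, where the knock-in allele was active. The dermal sort used a CD140a antibody, which binds the receptor that Pdgfra encodes. The sorts are positive for 1 marker each, so any cell with that marker could be included. Libraries were made with the SMARTer Directional cDNA Library Construction Kit and the NEBNext Ultra Directional RNA Library Prep Kit. Per the labels, epidermal libraries started from RNA freed of ribosomal RNA and dermal libraries from oligo(dT)-selected RNA. Tissue and RNA selection therefore cannot be told apart in any difference given here. No label says whether replicates of a tissue were separate embryos, so the p-values measure the spread between these samples, which may be technical.

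Embryonic skin is built from an epithelium and the mesenchyme below it. Epidermal cells are joined by desmosomes, adherens and tight junctions and rest on a basement membrane, and p63 is a master regulator of their stratified fate. Dermal fibroblasts make collagens and other matrix, and both tissues exchange Wnt, FGF, PDGF, BMP and ectodysplasin signals that place the hair follicles. Levels are in CPM, counts brought to a common library total with TMM scaling, listed for replicates 1, 2 and 3. A fold change is given on the log2 scale ± its standard error, epidermis over dermis, so a negative value means less RNA in epidermis. Adjusted p is from edgeR's quasi-likelihood test with Benjamini-Hochberg adjustment over the 12975 genes, and a gene passed, or was called, at a value under 0.05. In bulk samples like these, fewer cells of a type and less RNA per cell cannot be told apart.

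The epidermal libraries held between 3952643 and 7777808 counts in genes and the dermal libraries between 16931664 and 33386872. Genes with at least 1 count numbered from 10765 to 16016 in epidermis and from 12998 to 15549 in dermis. Entries assigned to no gene made up 42.6% to 51.5% in epidermis and 11.6% to 14.2% in dermis. The ribosomal RNA precursor Rn45s took 4.43% to 4.96% of the gene counts in epidermis and 11.2% to 30.7% in dermis. Counts of replicates were compared and none was a copy of another: chi-square values divided by their degrees of freedom came to 27 to 33.4 (epidermis) and 103 to 227 (dermis).

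The sort genes and the tissue markers followed the labels. Trp63 (chromosome 16, 25683763 to 25892088 in GRCm38.p6) was at 463.5, 570.8 and 419.0 CPM in epidermis and at 0.413, 0 and 2.04 CPM in dermis. Pdgfra (chromosome 5, 75151322 to 75198206) was at 22.8, 52.1 and 10.1 CPM in epidermis and at 904.1, 618.5 and 740.3 CPM in dermis. The tissues did not overlap for either gene, and epidermis held 498.2 times as much Trp63 RNA (8.96 ± 0.88, adjusted p 0.00045) and 26.4 times less Pdgfra RNA (-4.72 ± 0.60, adjusted p 0.00127). Counts of Trp63 pool the isoforms of both its promoters.

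Markers of each tissue were higher in all libraries of that tissue, and the epithelial markers were near 0 in dermis. Fermt1 (chromosome 2, 132904177 to 132946036), which encodes the integrin activator kindlin-1, was at 158.0, 165.0 and 129.1 CPM in epidermis and at 0.0516, 0 and 0 CPM in dermis, where it had 1 count. Grhl2 (chromosome 15, 37232821 to 37363569), a grainyhead factor of epithelia, was at 210.4, 207.0 and 218.6 CPM in epidermis against 0.155, 0 and 0 CPM. Fat2 (chromosome 11, 55250609 to 55337505), a giant protocadherin gene, stood at 294.6, 210.7 and 158.6 CPM and had no count in dermis. All 3 epithelial markers separated the tissues without overlap. With 1 to 3 counts in a tissue, the ratio of the 2 tissues is given with its exact 95% interval, and with no count a lower bound is computed from 3 counts over the group. These intervals and bounds cover counting error only. By this reckoning the ratio was 9261.8 for Fermt1 (interval 1661.1 to 365941.4, adjusted p 1.56e-05) and 4301.0 for Grhl2 (1470.7 to 20864.5, adjusted p 2.08e-05), and Fat2 was at least 4370.2-fold higher (adjusted p 3.5e-05). Col6a2 (chromosome 10, 76595756 to 76623630), a chain of collagen VI, was at 14.7, 28.8 and 7.54 CPM in epidermis and at 2294.1, 1631.2 and 1903.3 CPM in dermis (-6.82 ± 0.54, adjusted p 0.000163).

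Epidermal replicates were not alike in every marker. Krt8 and Krt18, keratins of simple epithelia and periderm, reached 578.5 and 380.1 CPM in epidermis replicate 3, against 60.3 and 26.2 CPM in replicate 1 and 20.3 and 24.3 CPM in replicate 2. Gabrp, another gene listed for the periderm, was at 267.0, 177.9 and 1315.4 CPM. Its log2 fold change was 12.39 ± 1.40 with all libraries (adjusted p 0.000815) and 11 without epidermis replicate 3, and it did not pass with limma voom (adjusted p 0.387). Epidermis replicate 2 was the highest of the epidermal libraries in Pdgfra, Col6a2, Prrx1 and the chains of collagens I and III. Col1a1, the main chain of collagen I, was at 48.2, 378.6 and 37.7 CPM in epidermis, and its log2 fold change of -5.68 ± 1.0 became -7.54 without replicate 2. Collagen I RNA in the GFP sort was still far below the dermal 9172.9, 7213.9 and 7432.4 CPM. Prrx1, a marker of limb and dermal mesenchyme, passed (-5.26 ± 1.0, adjusted p 0.00712) but not without epidermis replicate 1 (adjusted p 0.0623).

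**Figure D1:**
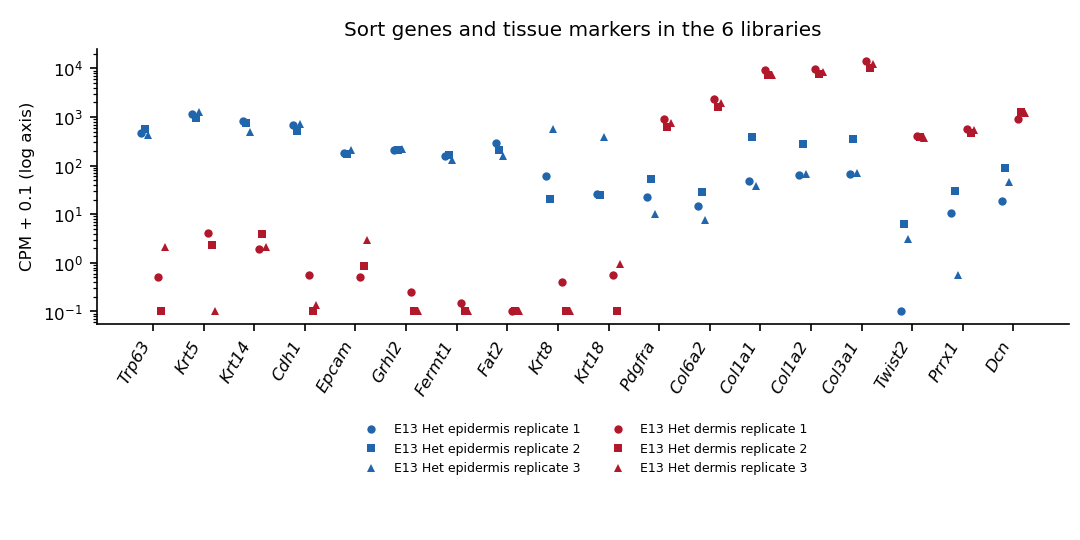
Level of each sort gene and tissue marker in the 6 libraries, in CPM with a small constant added, on a log axis. Blue points are epidermal and red points dermal libraries, and the shape gives the replicate. Trp63 sits between 419.0 and 570.8 CPM in epidermis and at or under 2.04 CPM in dermis, and epidermis replicate 3 stands above the other two in Krt8 and Krt18.

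Across all genes, 4504 of 12975 were called, which is 34.7%. Of these, 2140 (16.5% of those tested) were higher and 2364 (18.2%) lower in epidermis, and the smallest change called was 0.43 on the log2 scale. The median log2 fold change over the genes tested was -0.13. At least 10-fold changes were called for 525 genes higher and 631 lower in epidermis, and 95 of the higher genes had no count in dermis while 57 of the lower genes had none in epidermis. Libraries of the 2 tissues did not overlap in level for 7280 genes (56.1%). Scaling to raw library totals in place of TMM left the number called at 4594 but moved the share of called genes that were higher from 47.5% to 68.7%, with a shift of 0.44 in the median over all genes. Directions of lists are therefore given relative to TMM scaling, and lists whose median turns under raw totals are named where they appear.

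The genes with the largest changes among those with at least 10 CPM came from both tissues. In epidermis they included Fat2, Dsg2, Cldn6, Fermt1 and Tfap2b, described with their groups, and Fam83b, at 99.7, 106.2 and 101.6 CPM with no dermal count (at least 2097.2-fold, adjusted p 2.58e-05). Lad1, which encodes ladinin of the basement membrane zone, was at 37.9, 35.3 and 42.7 CPM, also with no dermal count (at least 778.7-fold, adjusted p 0.000102). Kcnh7, a potassium channel gene that overlaps Gca, was at least 1355.1-fold higher, and Myh14, a nonmuscle myosin heavy chain gene, at least 1037.9-fold. In dermis, Cmklr1, the receptor of chemerin, was at 25.3, 23.4 and 11 CPM and had no epidermal count (at least 120.2-fold lower in epidermis, adjusted p 0.00123). Epha8, an ephrin receptor gene, was at 86.2, 75.1 and 84.8 CPM in dermis with 1 count in epidermis (ratio 1666.4, interval 299.0 to 65832.6, adjusted p 2.08e-05). The same dermal extreme held genes of blood and immune cells. Lyz2, the lysozyme of macrophages and granulocytes, and Hbb-y, an embryonic globin, were absent or near 0 in epidermis, and their cell types are described at the end.

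The epithelial lists lay on the epidermal side almost throughout. Of 11 genes of basal keratins and hemidesmosomes, the structures that fix basal cells to the basement membrane, 11 were higher in epidermis (median log2 fold change 7.29). Krt14, a basal keratin, was at 842.7, 765.4 and 483.9 CPM in epidermis and at 1.80, 3.79 and 2.04 CPM in dermis (8.14 ± 0.40, 281.8-fold, adjusted p 2.08e-05). Krt5, its partner, was at 1152.6, 963.4 and 1249.9 CPM against 3.92, 2.23 and 0 CPM (9.16 ± 1.20, adjusted p 0.00146). The list was not uniform in size of change. Itga6, the integrin alpha-6 chain of hemidesmosomes, was at 311.3, 244.7 and 204.8 CPM in epidermis but also at 58.2, 68.5 and 54.9 CPM in dermis (2.07 ± 0.20, 4.19-fold, adjusted p 0.000217). Dst, the plakin that ties keratin to the hemidesmosome in one of its isoforms, differed 7.81-fold (adjusted p 9.54e-05) and overlaps Bend6. Its counts pool isoforms of other tissues.

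Periderm and suprabasal genes were counted apart. Of 23 suprabasal and periderm genes, 14 were tested, and 10 were higher in epidermis: 8 of 8 tested for the periderm, the transient outer sheet of embryonic skin, and 2 of 6 tested for suprabasal cells. With limma voom the counts were 4 of 8 and 4 of 6, and with DESeq2 4 of 11 tested suprabasal genes were higher, so the difference between the layers depends on the tool. Sfn, which encodes 14-3-3 sigma, was at 324.6, 252.4 and 271.1 CPM in epidermis and at 0.464, 0 and 0.339 CPM in dermis (9.82 ± 0.50, 904.5-fold, adjusted p 2.08e-05). Krt17 was at 144.9, 51.4 and 99.7 CPM in epidermis against 0.361, 0.247 and 0 CPM (9.06 ± 0.87). Keratins of committed suprabasal cells were low. Krt1 was at 18.1, 10.6 and 1.26 CPM in epidermis and 1.6, 0 and 2.78 CPM in dermis (adjusted p 0.191), and Krt10 at 23.0, 10 and 3.77 CPM against 3.20, 4.12 and 4.72 CPM (adjusted p 0.153). Epidermis replicate 3, the highest in Krt8 and Krt18, was the lowest in both.

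Cell junction genes were nearly all epidermal. Of 18 desmosome and adherens junction genes, 16 were higher in epidermis (median 7.82, or 7.59 with genes without counts at their bound), and of 18 tested among 20 tight junction, claudin and connexin genes, 17 were higher (median 9.33, at bound 7.76). Cdh1, the E-cadherin gene, was at 670.4, 526.1 and 730.7 CPM in epidermis and at 0.464, 0 and 0.0339 CPM in dermis (11.83 ± 0.69, 3651.4-fold, adjusted p 5.26e-05). Dsg2, a desmosomal cadherin, was at 276.9, 213.8 and 363.4 CPM with 2 counts in dermis (ratio 8450.6, interval 2338.3 to 69796.8, adjusted p 2.08e-05). Cldn6, a claudin of embryonic epithelia, was at 83.4, 42.1 and 103.0 CPM with no dermal count (at least 1458.8-fold, adjusted p 0.000117). The tissues did not overlap for any of these 3 genes. Cdh3, the P-cadherin gene, was at 427.2, 473.7 and 507.0 CPM in epidermis and still at 47.0, 42.6 and 32.5 CPM in dermis (3.53 ± 0.20, 11.5-fold). Ctnnd1, the gene of p120 catenin, a partner of cadherins, did not pass, at 264.6, 288.6 and 322.8 CPM against 284.2, 244.4 and 229.2 CPM (0.21 ± 0.16, adjusted p 0.351). Gja1, the connexin 43 gene, was higher in epidermis (7.03-fold, adjusted p 0.000103), although dermis held 97.2, 68.6 and 91.8 CPM.

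Of 28 epithelial transcription factors, 21 were tested, and 19 were higher and 1 lower in epidermis (median 8.96, at bound 7.53). Tfap2b, an AP-2 factor of the ectoderm, was at 871.3, 831.3 and 725.2 CPM in epidermis and at 0.619, 0 and 0 CPM in dermis (11.90 ± 0.88, 3827.0-fold, adjusted p 0.000148). Klf4, a factor of barrier formation, overlapped between the tissues, at 51.4, 76.5 and 100.8 CPM in epidermis and 107.0, 51.7 and 45.1 CPM in dermis (0.17 ± 0.38, adjusted p 0.768). The 1 lower member was Hes1, a Notch target, at 48.6, 42.7 and 64.2 CPM in epidermis and 123.7, 156.6 and 186.4 CPM in dermis (-1.59 ± 0.23, adjusted p 0.00138). Of 20 tested genes for epithelial splicing, polarity, traffic and membrane proteases, 17 were higher (median 5.75). St14, the serine protease matriptase, had 2 counts in dermis (ratio 1903.0, interval 525.7 to 15731.0, adjusted p 4e-05). Spint2, which encodes an inhibitor of such proteases, was at 74.0, 100.9 and 161.9 CPM in epidermis and at 3.71, 3.63 and 2.85 CPM in dermis (5.05 ± 0.36, 33.1-fold, adjusted p 5.41e-05). Ap1m2, the epithelial mu subunit of the AP-1 adaptor, was at 32.6, 36.9 and 36.8 CPM in epidermis with no dermal count (at least 727.9-fold, adjusted p 0.000122).

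The promoters of 5 epithelial genes are shown because the E-box CACCTG, the hexamer bound by the zinc finger repressors of the Snail and ZEB families that silence epithelial genes in mesenchyme, occurs in them. The motif and the genes were chosen after the values were seen. Each line gives the 100 bases before the annotated start of the gene in RefSeq on GRCm38.p6, read 5′ to 3′ on the strand of the gene, with each match in capitals. CAGGTG is the same hexamer read from the opposite strand.
Ap1m2: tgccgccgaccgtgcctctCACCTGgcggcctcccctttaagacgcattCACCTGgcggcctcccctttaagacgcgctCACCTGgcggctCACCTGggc
Spint2: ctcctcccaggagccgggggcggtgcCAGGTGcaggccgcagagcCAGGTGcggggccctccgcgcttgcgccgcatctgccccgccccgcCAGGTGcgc
Cldn4: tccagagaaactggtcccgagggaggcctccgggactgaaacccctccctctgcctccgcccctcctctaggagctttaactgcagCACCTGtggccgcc
Cldn6: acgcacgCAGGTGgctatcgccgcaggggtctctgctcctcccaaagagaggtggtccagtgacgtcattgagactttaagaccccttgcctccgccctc
Sfn: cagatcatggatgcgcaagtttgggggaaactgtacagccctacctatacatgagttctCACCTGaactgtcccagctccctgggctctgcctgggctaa

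These windows are chr9:21312334-21312433 (minus strand) for Ap1m2, chr7:29281978-29282077 (minus) for Spint2, chr5:134946935-134947034 (minus) for Cldn4, chr17:23679265-23679364 (plus) for Cldn6 and chr4:133602169-133602268 (minus) for Sfn. Ap1m2 has 4 matches, which begin 81, 51, 21 and 9 bases before its start, and Spint2 has 3, at 74, 55 and 9 bases. Cldn4, Cldn6 and Sfn have 1 each, at 14, 93 and 41 bases. Within 250 bases before the start, on either strand, the hexamer occurred in 18.7% of the 1674 matched promoters of genes called higher in epidermis and in 12.3% of the 1849 of genes called lower. Among the 370 matched promoters of genes at least 10-fold higher it occurred in 28.6%, and among the 454 at least 10-fold lower in 13.9%. It occurred in 14.6% of the 10235 matched promoters of genes tested and in 17.1% of all 27025 promoters in the table. For the related E-box CAGCTG the shares were 16.8% of genes at least 10-fold higher, 17.2% of those at least 10-fold lower and 11.6% of those tested. The spaced motif GCCNNNGGC, a part of the AP-2 binding sequence, occurred in 22.2%, 20.9% and 21.0%. Median GC content of the windows was 58.2%, 59.2% and 60.4%. A match says only that these letters are present, and the shares were not tested.

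Factors that can bind this E-box were measured in both tissues. Snai2, the Slug gene, was at 71.7, 69.8 and 55.9 CPM in epidermis and at 71.4, 61.9 and 58.3 CPM in dermis (0.04 ± 0.20, adjusted p 0.891). Its libraries overlapped fully. Zeb1 and Zeb2, named after their values were seen, had fitted log2 fold changes of -4.91 and -5.44, and Snai1 had -4.58. Levels and adjusted p of Zeb1, Zeb2 and Snai1 are not given here, so their calls cannot be read from these values. They belong to the list of mesenchymal transcription factors, of which 33 of 40 genes were tested. Of the 33, 18 were lower and 1 higher in epidermis and 14 did not pass (median -3.33). Twist2, a basic helix-loop-helix factor of dermal precursors, was at 0, 6.11 and 2.98 CPM in epidermis and at 398.7, 396.5 and 376.3 CPM in dermis (-6.89 ± 0.77, 118.2-fold, adjusted p 0.000792). Twist1, its relative, was at 7.66, 20.4 and 2.04 CPM against 337.4, 332.3 and 323.3 CPM (-5.01 ± 0.71, 32.1-fold, adjusted p 0.00199). Prrx2, a paired-type homeobox gene of mesenchyme, had 2 counts in epidermis and 55.6, 70.8 and 48.7 CPM in dermis (ratio 553.0, interval 153.0 to 4568.3, adjusted p 5.41e-05). All 3 separated the tissues without overlap. The 1 higher member was Msx1, which overlaps Msx1as, at 6.85, 5.30 and 3.93 CPM in epidermis (adjusted p 0.0411), a call that ended without dermis replicate 2 or 3 or epidermis replicate 2 or 3 (adjusted p up to 0.123).

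Cytoskeletal and adhesion genes of mesenchyme were lower in epidermis for 16 of 19 tested (median -3.10), or for 11 without dermis replicate 1 and 10 without dermis replicate 3. Vim, the vimentin gene, was at 159.4, 214.7 and 256.2 CPM in epidermis and at 1733.5, 1701.0 and 1553.0 CPM in dermis (-2.98 ± 0.21, 7.91-fold, adjusted p 5.1e-05). Thy1, a surface glycoprotein of fibroblasts, was at 0, 1.5 and 0.785 CPM against 166.2, 220.9 and 269.9 CPM (-7.97 ± 0.58, 250.6-fold, adjusted p 8.47e-05). The tissues did not overlap for either gene. Cdh2, the N-cadherin gene, was low in both tissues and did not pass, at 3.63, 11.1 and 0.314 CPM in epidermis and 38.4, 14.3 and 36.1 CPM in dermis (adjusted p 0.0839).

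**Figure D2:**
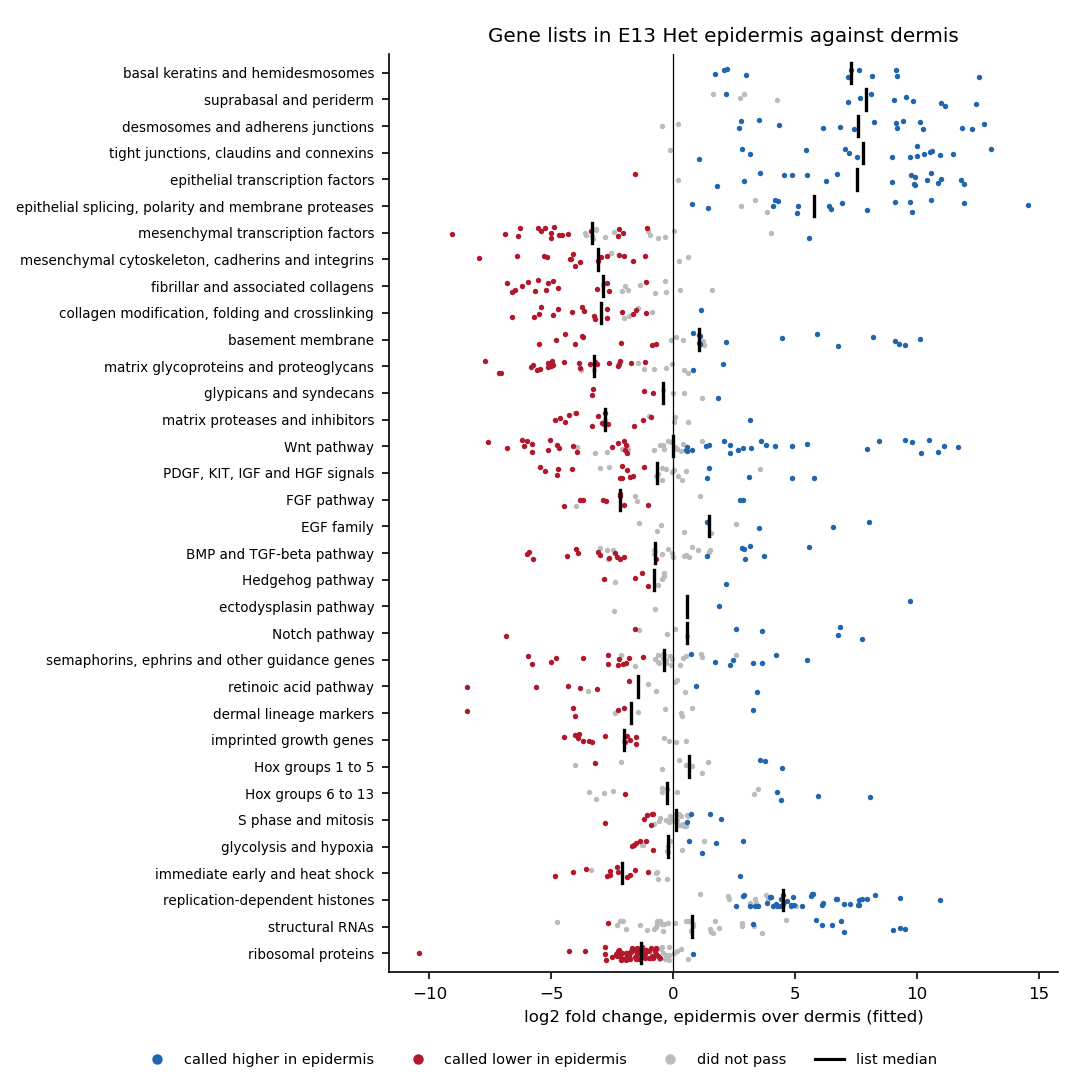
Fitted log2 fold change, epidermis over dermis, of each tested gene in the gene lists. Each point is a gene, blue where called higher in epidermis, red where called lower and grey where it did not pass, and the black bar is the list's median with genes without counts at their bound. Epithelial lists lie to the right (median 7.29 for basal keratins and hemidesmosomes), mesenchymal and matrix lists to the left (median -3.33 for mesenchymal transcription factors), and the basement membrane list spans both sides.

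The collagen lists fell on the dermal side, with exceptions. Of 25 fibrillar and associated collagens, 15 were lower and 0 higher in epidermis (median -2.88), among them 7 of the 10 that form fibrils. Col3a1, of the thin fibrils of embryonic dermis, was at 67.5, 354.0 and 69.6 CPM in epidermis and at 14092.4, 9975.6 and 12113.7 CPM in dermis (-6.20 ± 0.80, 73.5-fold, adjusted p 0.00137). Col5a1, which starts fibril assembly, was at 269.6, 346.2 and 242.8 CPM in epidermis against 2337.6, 1638.5 and 1740.6 CPM (-2.73 ± 0.22, 6.66-fold, adjusted p 8.72e-05). Epidermis replicate 2 was again the highest epidermal library, and without it the Col3a1 log2 fold change was -7.47. Col6a1, a partner of Col6a2, was 89.2-fold lower (adjusted p 0.000511), and Col26a1 was at 1.01, 14 and 2.67 CPM in epidermis and at 629.0, 618.1 and 619.1 CPM in dermis (-6.63 ± 0.82, adjusted p 0.00119). Col12a1, a fibril-associated collagen, overlapped between tissues, at 539.0, 726.2 and 1019.7 CPM against 1221.0, 660.3 and 973.0 CPM (-0.32 ± 0.29, adjusted p 0.43). Col11a1 was at 42.5, 53.2 and 36.1 CPM in epidermis and at 35.4, 14.2 and 58.8 CPM in dermis (0.28 ± 0.46, adjusted p 0.68).

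The enzymes and chaperones that mature collagen were lower in epidermis for 17 of 22 tested genes and higher for 1 (median -2.97). Serpinh1, the collagen chaperone HSP47, was at 249.3, 313.6 and 342.4 CPM in epidermis and at 1974.2, 2012.7 and 1951.9 CPM in dermis (-2.71 ± 0.18, 6.56-fold, adjusted p 4e-05). Lox, the lysyl oxidase that crosslinks collagen and elastin, was at 6.25, 25.3 and 3.46 CPM against 660.9, 401.8 and 565.3 CPM (-5.50 ± 0.74, 45.2-fold, adjusted p 0.00167). Fkbp10, a collagen chaperone gene that overlaps Nt5c3l, was 12.6-fold lower (adjusted p 2.85e-05). None of these overlapped between the tissues. Leprel1, a prolyl 3-hydroxylase gene of basement membrane collagen, was the 1 higher member, at 32.0, 45 and 22.0 CPM in epidermis and 18.8, 12.8 and 13.5 CPM in dermis (1.14 ± 0.37, adjusted p 0.0438). That call ended without epidermis replicate 2 or any 1 dermal replicate (adjusted p up to 0.182) and also without the filter (adjusted p 0.0536) or with all 12 RNA libraries (0.237).

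Other matrix genes were mostly dermal. Of 36 tested glycoproteins, proteoglycans and elastic fibre genes, 25 were lower and 2 higher in epidermis (median -3.24). Eln, the elastin gene, was at 12.1, 11.3 and 3.30 CPM in epidermis and at 474.1, 537.2 and 498.6 CPM in dermis (-5.82 ± 0.46, 56.6-fold, adjusted p 0.00013). Mfap2, a microfibril glycoprotein gene, was at 13.7, 14.4 and 8.01 CPM against 400.9, 427.5 and 461.4 CPM (-5.16 ± 0.26, 35.6-fold, adjusted p 2.08e-05). Sparc, a collagen-binding protein gene, was only 3.28-fold lower (adjusted p 0.000324), with 390.9, 438.4 and 522.9 CPM in epidermis. The 2 higher members were proteoglycans and both depended on single libraries. Vcan, the versican gene, was at 2149.9, 2303.0 and 1834.2 CPM in epidermis and 1551.6, 941.3 and 1121.0 CPM in dermis (0.80 ± 0.22, adjusted p 0.0216), a call lost without dermis replicate 3 or epidermis replicate 2 (adjusted p up to 0.0924) and with all 12 RNA libraries in 1 fit (adjusted p 0.123). Fmod, the fibromodulin gene, passed at an adjusted p of 0.0292 and not without dermis replicate 1 or any 1 epidermal replicate (up to 0.0636) or with all 12 RNA libraries (0.053). Of 21 matrix proteases and inhibitors, 14 were lower and 1 higher (median -2.81). The higher gene was Mmp15, a membrane metalloprotease gene, at 12.1, 18.8 and 131.0 CPM in epidermis and 8.05, 4.62 and 5.66 CPM in dermis (3.14 ± 0.93, adjusted p 0.0371), and it was not called without epidermis replicate 3 or any 1 dermal replicate (up to 0.177), with limma voom or without the filter. Timp2, an inhibitor gene, was at 48.6, 30.0 and 41.5 CPM in epidermis and at 338.8, 268.7 and 300.3 CPM in dermis (-2.92 ± 0.22, adjusted p 6.62e-05).

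The basement membrane, the sheet between the tissues, was divided between them by gene. Of 28 tested genes of 31 listed, 14 were higher and 9 lower in epidermis (median 1.05), against 16.5% and 18.2% of all genes tested. Chains of epithelial laminins were epidermal. Lama5, the alpha-5 chain, was at 789.1, 769.6 and 810.9 CPM in epidermis and at 1.75, 1.90 and 0 CPM in dermis (9.49 ± 1.03, 719.3-fold, adjusted p 0.000692). Lama3, the alpha chain of laminin-332, was at 270.4, 369.0 and 281.3 CPM against 0.361, 2.39 and 0.712 CPM (8.20 ± 0.64, 294.3-fold, adjusted p 0.000166), and its beta chain partner Lamb3 had a log2 fold change of 9.27. Alpha chains of mesenchymal and vascular laminins were dermal: Lama4 was at 0, 23.1 and 6.28 CPM in epidermis and at 394.1, 223.5 and 255.1 CPM in dermis (-4.83 ± 1.04, adjusted p 0.012), but did not pass without the filter (adjusted p 0.0712). Lama2, at 0, 10.1 and 0.785 CPM against 107.1, 70.8 and 82.4 CPM, passed with all libraries (adjusted p 0.0193) and not without any 1 dermal replicate or epidermis replicate 3 (up to 0.0705), nor without the filter (0.0912). The gamma-1 chain that many laminins share, Lamc1, was at 341.4, 377.0 and 532.6 CPM in epidermis and at 547.5, 377.5 and 415.0 CPM in dermis (-0.10 ± 0.22, adjusted p 0.765). The 4 laminin chains called lower became 1 without dermis replicate 1, and 2 without dermis replicate 3 or without the filter.

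Linker proteins and basement membrane collagens were split in the same way. Nid1, nidogen-1, which bridges laminin and collagen IV, was at 9.67, 36.2 and 49.3 CPM in epidermis and at 485.4, 385.9 and 427.6 CPM in dermis (-3.76 ± 0.54, 13.6-fold, adjusted p 0.00215). Nid2, which overlaps 2700060E02Rik, was 16.5-fold lower (adjusted p 0.00318). Npnt, nephronectin, a ligand of integrin alpha-8, was higher in epidermis, at 119.7, 133.7 and 135.1 CPM against 6.60, 2.23 and 8.55 CPM (4.45 ± 0.45, 21.9-fold, adjusted p 0.0003). The gene of that integrin chain, Itga8, was dermal, at 0, 4.61 and 0.942 CPM in epidermis and 181.3, 170.0 and 183.8 CPM in dermis (-6.41 ± 0.81, adjusted p 0.00126; it overlaps E030013I19Rik). Col18a1, whose product carries endostatin, was at 954.9, 967.4 and 1023.0 CPM in epidermis and at 5.98, 8.25 and 12.6 CPM in dermis (6.77 ± 0.32, 109.1-fold, adjusted p 2.08e-05). Col7a1, of the anchoring fibrils, which overlaps Mir711, was at 121.1, 88.7 and 64.7 CPM in epidermis and at 481.2, 414.1 and 331.9 CPM in dermis (-2.16 ± 0.26, 4.47-fold, adjusted p 0.000536). The level of Col7a1 RNA was therefore lower in the epidermal than in the dermal libraries, with no overlap. The main chains of collagen IV gave small values: Col4a1 was at 284.7, 334.5 and 423.3 CPM against 668.6, 661.7 and 562.6 CPM (-0.86 ± 0.19, adjusted p 0.00888, but 0.16 under raw totals), and Col4a2, which overlaps it, did not pass (0.09 ± 0.27, adjusted p 0.834).

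The Fraser complex, which holds embryonic epidermis to dermis and whose loss causes blistering and cryptophthalmos, was shared out between its members. Fras1 was at 1582.0, 1798.6 and 2204.4 CPM in epidermis and at 42.9, 22.4 and 30.1 CPM in dermis (5.87 ± 0.31, 58.4-fold, adjusted p 2.08e-05). Frem2 was at 901.5, 873.3 and 1239.7 CPM against 1.08, 1.98 and 0.0339 CPM (10.13 ± 0.95, 1122.9-fold, adjusted p 0.000394). Frem1 ran the other way, at 16.3, 34.8 and 22.8 CPM in epidermis and 376.8, 296.7 and 288.4 CPM in dermis (-3.69 ± 0.30, 12.9-fold, adjusted p 8.47e-05). Each of these genes separated the tissues in all 6 libraries and was called whichever library was left out. Grip1, the scaffold that brings Fras1 and Frem2 to the cell surface, was higher in epidermis, at 46.1, 44.1 and 41.3 CPM against 13.4, 10.1 and 6.28 CPM (2.14 ± 0.35, adjusted p 0.00243), and it overlaps Helb and 4930564G21Rik.

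**Figure D3:**
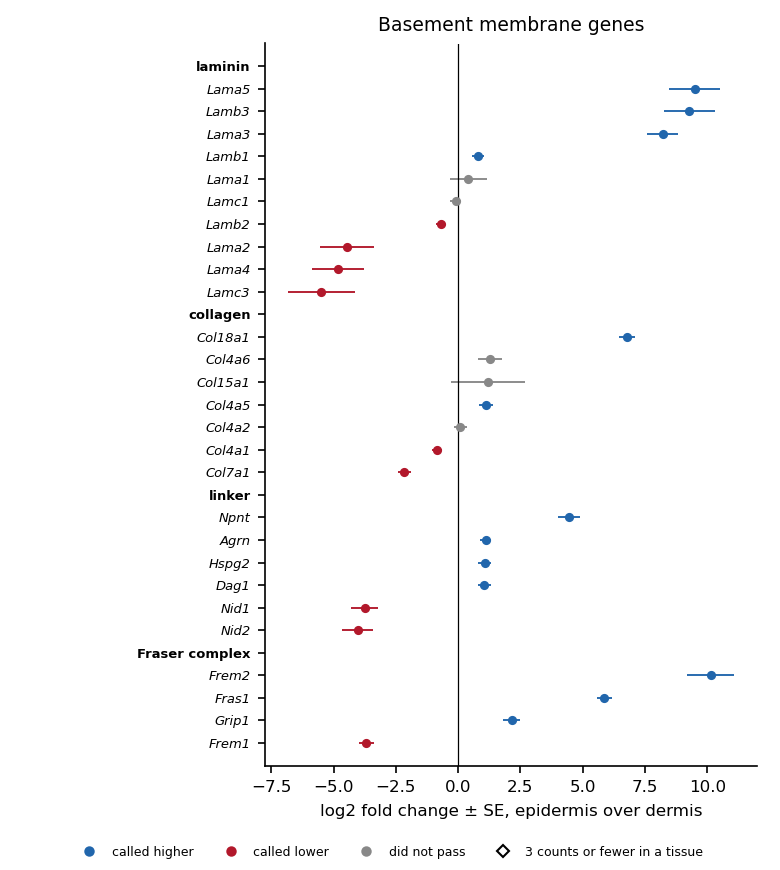
Log2 fold change ± SE, epidermis over dermis, of tested basement membrane genes (1 is not shown), grouped into laminins, collagens, linkers and the Fraser complex. Blue points were called higher in epidermis, red points lower and grey points did not pass. Lama5, Col18a1, Npnt, Fras1 and Frem2 lie on the epidermal side, while Lama4, Col7a1, Nid1 and Frem1 lie on the dermal side.

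The Wnt pathway, which sets dermal identity and starts hair placodes, was counted by role. Of all genes tested, 16.5% were higher and 18.2% lower in epidermis. Of 62 tested genes of 67 listed, 26 were higher and 19 lower in epidermis, and the list median of -0.03 changed sign with the scaling (0.37 under raw totals). Of 15 tested ligands, 9 were higher and 3 lower, the lower share being near that of all genes. Wnt10b, an early placode ligand, was at 161.2, 113.0 and 117.3 CPM in epidermis with 3 counts in dermis (ratio 2568.8, interval 878.0 to 12464.8, adjusted p 2.58e-05). Wnt7b was at 136.0, 212.9 and 252.6 CPM against 0.309, 0 and 0 CPM (10.84 ± 0.78, adjusted p 0.000105; it overlaps AU022754), and Wnt3 at 150.9, 176.2 and 165.9 CPM against 0.670, 0 and 0 CPM (9.48 ± 0.92, adjusted p 0.000445; it overlaps Wnt9b). Wnt6 was at 144.7, 137.5 and 211.4 CPM in epidermis and, unlike those ligands, at 12, 10.9 and 12.3 CPM in dermis (3.81 ± 0.24, adjusted p 3.5e-05). The dermal ligands were those best known for signalling without beta-catenin, and Wnt2b. Wnt11 was at 0, 1.15 and 2.83 CPM in epidermis and at no less than 86.6 CPM in every dermal library (-6.11 ± 0.71, 69.3-fold, adjusted p 0.000686). Wnt5a was at 0, 20.9 and 10.8 CPM against 392.5, 396.8 and 306.3 CPM (-5.06 ± 0.98, 33.3-fold, adjusted p 0.0077, but 0.0524 without the filter).

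Antagonists of the pathway, counted together with the Kremen genes of Dkk receptors, were found in both tissues. Of 13 tested, 6 were lower and 3 higher in epidermis, against 18.2% and 16.5% of all genes tested, and 4 did not pass. Of 10 nuclear factors and targets, 6 were lower and 2 higher, against the same shares of all genes tested. Dkk1 was at 0, 0.231 and 0.471 CPM in epidermis and at 36.6, 36.9 and 13.9 CPM in dermis (-6.83 ± 0.87, 114.1-fold, adjusted p 0.000704), and Notum, which strips the lipid from Wnt proteins, at 0, 1.73 and 0.942 CPM against 57.7, 64.5 and 94.3 CPM (-6.19 ± 0.69, adjusted p 0.000454). In epidermis, Dkk4, an inhibitor made by placodes, was at 19.9, 12.5 and 7.07 CPM with no dermal count (at least 256.2-fold, adjusted p 0.00212). Kremen2, a Dkk receptor gene, was at 318.4, 236.2 and 172.1 CPM against 0.309, 3.38 and 0 CPM (7.92 ± 1.24, adjusted p 0.00316). Both tissues held antagonists of their own. Apcdd1, an inhibitor that Wnt signalling itself induces, was at 37.1, 82.5 and 57.6 CPM in epidermis and at 1100.4, 943.9 and 1009.5 CPM in dermis (-4.10 ± 0.30, 17.2-fold, adjusted p 5.74e-05). Axin2, the usual readout of beta-catenin signalling, overlapped between the tissues, at 185.4, 175.3 and 115.0 CPM against 249.3, 198.3 and 169.7 CPM (-0.38 ± 0.23, adjusted p 0.243). Lef1, a nuclear partner of beta-catenin, was higher in epidermis, at 209.4, 326.4 and 157.4 CPM against 56.8, 45.9 and 37.5 CPM (2.31 ± 0.30, adjusted p 0.000737).

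Among receptors and their regulators, 7 of 15 tested Wnt receptor genes were higher in epidermis and 3 lower, against 16.5% and 18.2% of all genes. The lower share is near that of all genes. The 7 higher became 4 when epidermis replicate 2 or dermis replicate 3 was left out. Fzd10 was at 352.2, 316.6 and 244.6 CPM in epidermis and at 24.9, 29.6 and 22.0 CPM in dermis (3.58 ± 0.21, adjusted p 3.22e-05). Fzd2 was at 31.4, 50.3 and 49.8 CPM against 201.2, 154.1 and 140.1 CPM (-1.91 ± 0.25, adjusted p 0.000762). Of 7 tested R-spondin genes and their receptors, 4 were higher and 1 lower in epidermis. Rspo1 was the lower one, at 0, 4.50 and 2.36 CPM in epidermis and 82.7, 86.1 and 94.0 CPM in dermis (-5.15 ± 0.79, adjusted p 0.00268), while the receptor gene Lgr6 was at 50, 44.2 and 52.6 CPM in epidermis and 1.65, 2.14 and 1.32 CPM in dermis (4.85 ± 0.36, adjusted p 6.11e-05). Lgr4 (2.32 ± 0.22) and the ubiquitin ligase genes Znrf3 (3.18 ± 0.22) and Rnf43 (8.43 ± 1.09, overlapping 1110028F11Rik), on which R-spondins act, were higher in epidermis as well.

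The PDGF ligand genes Pdgfa and Pdgfc lay on the epidermal side and the receptor genes on the dermal side. Not every PDGF ligand gene is described here. Of the 14 tested ligands of the whole list, 2 were higher and 7 lower in epidermis, against 16.5% and 18.2% of all genes tested. The 7 lower ligands became 1, 2 and 3 without dermis replicates 1, 2 and 3. They became 4 under raw totals or with a replicate block. Pdgfa was at 195.3, 167.9 and 113.1 CPM in epidermis and at 2.06, 4.70 and 2.24 CPM in dermis (5.76 ± 0.41, 54.2-fold, adjusted p 5.26e-05), and Pdgfc had a log2 fold change of 4.85 ± 0.48. The receptor gene Pdgfrb was at 20.6, 10.4 and 5.03 CPM in epidermis and 357.6, 318.5 and 281.3 CPM in dermis (-4.76 ± 0.48, 27.0-fold, adjusted p 0.000445), as Pdgfra was, on whose product the dermal cells were sorted. For Pdgfa, Pdgfrb and Pdgfra, no library broke this order. Met, the receptor of HGF, and Igf1r were higher in epidermis (log2 fold changes 3.09 and 1.39), and Ednra, an endothelin receptor, was lower (-5.47 ± 0.85, adjusted p 0.00302). Cxcl12, a chemokine of fibroblasts, was at 0, 9.23 and 9.58 CPM in epidermis and 231.5, 246.3 and 269.5 CPM in dermis (-5.25 ± 0.85, adjusted p 0.00364). Of the 30 tested genes of PDGF, KIT, IGF and HGF signals, 5 were higher and 12 lower. The higher share is near the 16.5% of all genes tested, and 18.2% of all genes were lower. The 12 lower became 5 without dermis replicate 1 and 7 without dermis replicate 2 or 3. Igfbp5, an IGF binding protein gene, overlapped between the tissues, at 2002.2, 1979.7 and 2078.1 CPM in epidermis and 2108.6, 1952.4 and 1898.7 CPM in dermis (0.02 ± 0.15, adjusted p 0.917).

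FGF receptors divided between the tissues. Fgfr2 was at 698.2, 1023.3 and 835.9 CPM in epidermis and at 124.4, 120.7 and 106.3 CPM in dermis (2.86 ± 0.19, 7.28-fold, adjusted p 4.17e-05), and counts pool its epithelial and mesenchymal splice forms. Fgfr1 was at 24.4, 46.7 and 29.5 CPM against 496.3, 506.3 and 422.3 CPM (-3.82 ± 0.27, 14.1-fold, adjusted p 4.98e-05). Feedback genes that FGF signalling induces were lower in epidermis for 5 of 6, or 3 of 6 without dermis replicate 1 or 2. Spry2 was at 31.0, 29.8 and 19.5 CPM in epidermis and at 124.2, 124.4 and 112.3 CPM in dermis (-2.17 ± 0.23, adjusted p 0.000329), and Dusp6 4.08-fold lower (adjusted p 0.00091). Of 10 FGF ligands 5 were tested, and Fgf10, a mesenchymal ligand of Fgfr2, was at 0, 2.31 and 0 CPM against 14.2, 14 and 11.7 CPM without passing (adjusted p 0.0573). Over the whole pathway 2 of 15 tested genes were higher and 9 lower, against 16.5% and 18.2% of all genes tested. Without dermis replicate 1 or 2, 5 were lower.

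All 4 EGF receptor genes were higher in epidermis and none of the 6 tested ligands passed. Egfr was at 327.9, 366.9 and 321.7 CPM in epidermis and 34.9, 25 and 28.0 CPM in dermis (3.53 ± 0.19, 11.6-fold, adjusted p 2.48e-05). Erbb3 was at 123.9, 109.0 and 168.2 CPM against 0.928, 3.88 and 0 CPM (6.56 ± 1.19, adjusted p 0.0057). The ligand Hbegf was at 11.7, 11.4 and 11.9 CPM in epidermis and 12.1, 17.7 and 19.3 CPM in dermis (adjusted p 0.415).

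**Figure D4:**
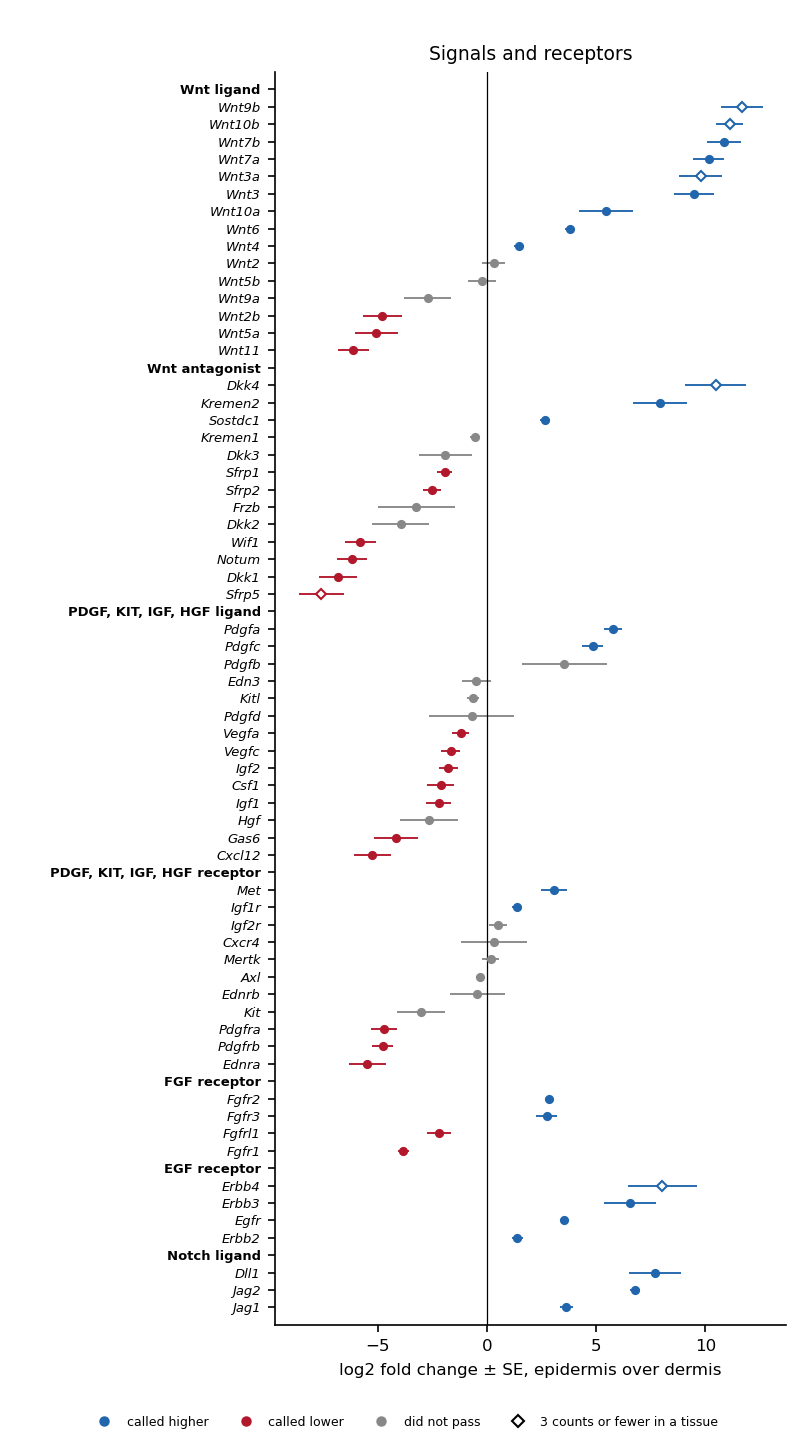
Log2 fold change ± SE, epidermis over dermis, of tested ligand, antagonist and receptor genes of Wnt, PDGF, KIT, IGF, HGF, FGF, EGF and Notch signals. Blue points were called higher in epidermis, red points lower and grey points did not pass, and open diamonds mark genes with 3 counts or fewer in a tissue. Wnt10b, Wnt7b, Wnt3 and Pdgfa lie on the epidermal side, and Wnt5a, Wnt11, Pdgfra, Pdgfrb and Fgfr1 on the dermal side.

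In the BMP and TGF-beta pathway 7 of 39 tested genes were higher and 14 lower in epidermis, the higher share being near the 16.5% of all genes and the lower share above the 18.2%. Bmp7 was at 301.5, 199.5 and 196.6 CPM in epidermis and at 23.2, 19.7 and 35.4 CPM in dermis (3.15 ± 0.29, 8.88-fold, adjusted p 0.000159). Bmp4, which overlaps Gm15217, was at 11.5, 5.54 and 9.58 CPM against 33.9, 42.3 and 32.6 CPM (-2.04 ± 0.38, 4.11-fold, adjusted p 0.00419). Bmp7 and Bmp4 thus lay in opposite tissues, while of 11 tested ligands 1 was higher and 5 lower in epidermis. Antagonists were also called in both directions, with 1 higher and 5 lower of 11 tested. Fst, follistatin, was higher in epidermis (2.92 ± 0.44, adjusted p 0.0016), and Grem1, gremlin, was at 4.84, 1.38 and 0.942 CPM in epidermis and 30.3, 60.8 and 53.3 CPM in dermis (-4.38 ± 0.64, adjusted p 0.0014). The 5 ligands called lower became 3 without epidermis replicate 2 or dermis replicate 1 or 3. Id1, a direct target of BMP signalling, was at 25.6, 19.6 and 21.2 CPM in epidermis and at 183.3, 227.0 and 158.9 CPM in dermis (-3.10 ± 0.22, 8.59-fold, adjusted p 4.98e-05), and Id3 was 8.08-fold lower (adjusted p 0.000537). Tgfbr2, the type II receptor of TGF-beta, was at 11.3, 33.9 and 32.8 CPM against 181.3, 156.5 and 150.9 CPM (-2.64 ± 0.38, adjusted p 0.0015).

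Of 4 tested ectodysplasin genes, the receptor and its adaptor were higher in epidermis and the other two did not pass. Edar, the ectodysplasin receptor of placodes, was at 59.4, 62.6 and 27.5 CPM in epidermis with 3 counts in dermis (ratio 1029.8, interval 351.4 to 5001.8, adjusted p 0.000166), and its adaptor Edaradd was 3.63-fold higher (adjusted p 0.00219). The ligand Eda did not pass, at 22.0, 24.2 and 15.9 CPM against 33.8, 28.5 and 42.5 CPM (adjusted p 0.0913). Of 5 Notch ligands 3 were tested and 3 were higher in epidermis: Jag2 was at 253.5, 239.4 and 207.5 CPM against 2.27, 2.31 and 1.87 CPM (6.77 ± 0.22, 109.2-fold, adjusted p 8.38e-06), with Jag1 and Dll1 at log2 fold changes of 3.64 and 7.72. Notch1 was at 711.9, 519.3 and 467.7 CPM in epidermis and 115.8, 101.4 and 70.8 CPM in dermis (2.56 ± 0.25, adjusted p 0.000201), while Notch2 and Notch3 did not pass. Targets differed in direction. Nrarp was higher in epidermis (6.82 ± 1.08, adjusted p 0.00327), and Hey2 was at 0, 0.692 and 0 CPM against 34.2, 26.6 and 37.4 CPM (-6.85 ± 0.95, adjusted p 0.00109). The median of the 11 tested Notch genes, 0.56, became -0.21 without epidermis replicate 3 and -0.04 without dermis replicate 3.

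Among Hedgehog genes, none of the 3 ligands reached the filter, and Shh was at 0, 4.27 and 0.471 CPM in epidermis with no dermal count. Of 10 tested receptors and factors, 4 were lower and 1 higher in epidermis, and 5 did not pass (34.7% of all genes tested were called). Gli1, a target of the pathway that overlaps Arhgap9, was at 4.63, 16.1 and 4.87 CPM in epidermis and at 62.3, 58.8 and 64.0 CPM in dermis (-2.83 ± 0.50, 7.10-fold, adjusted p 0.00321). Smo, the signal transducer of the pathway, did not pass (-0.39 ± 0.14, adjusted p 0.064).

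Guidance genes showed both directions, with 8 of 43 tested higher and 13 lower in epidermis and a median of -0.39, or 0.06 under raw totals. The higher share is near the 16.5% of all genes. Nrp1, a receptor of semaphorin 3 and VEGF that overlaps Mir1903, was at 28.6, 15.3 and 52.6 CPM in epidermis and at 992.9, 852.1 and 854.0 CPM in dermis (-4.81 ± 0.45, 28.0-fold, adjusted p 0.000323). Sema5a was at 51.8, 76.7 and 43.8 CPM against 837.5, 710.2 and 709.4 CPM (-3.71 ± 0.25, adjusted p 4e-05). In the other direction, Plxna2, a semaphorin receptor gene, was at 224.7, 274.1 and 297.6 CPM in epidermis and at 26.5, 32.3 and 24.0 CPM in dermis (3.27 ± 0.20, adjusted p 3.5e-05). The ephrin-B genes were split: Efnb2 was 4.97-fold higher in epidermis (adjusted p 9.14e-05) and Efnb1 3.85-fold lower (adjusted p 0.000441).

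Retinoic acid and dermal lineage genes were called in both directions. Crabp1, a retinoic acid binding protein gene of papillary dermis, was at 0, 8.99 and 2.04 CPM in epidermis and at 1164.3, 1613.0 and 1545.1 CPM in dermis (-8.48 ± 0.99, 357.4-fold, adjusted p 0.000921). Stra6, the retinol carrier receptor gene that overlaps Ccdc33, was at 0, 1.38 and 0 CPM against 31.6, 18.8 and 27.9 CPM (-5.62 ± 1.15, adjusted p 0.00701). Dhrs3, which reduces retinal and overlaps Vps13d, was higher in epidermis (3.43 ± 0.55, 10.8-fold, adjusted p 0.00213). The receptor gene Rarg overlapped between the tissues, at 127.0, 135.0 and 139.0 CPM in epidermis and 130.9, 132.3 and 120.5 CPM in dermis (adjusted p 0.774). Of 14 tested retinoic acid genes 2 were higher, near the 16.5% of all genes, and 6 lower, against 18.2% of all genes. Without dermis replicate 1 or 2, 3 were lower. Of 12 tested dermal lineage genes, 1 was higher and 5 lower in epidermis, against 16.5% and 18.2% of all genes. Among the 7 tested for papillary or reticular dermis were 4 of the 5 lower. Of 5 tested for dermal condensates, 1 was higher and 1 lower, near the shares of all genes. Trps1, listed for dermal condensates, was the higher one, at 93.9, 92.4 and 94.2 CPM against 8.92, 4.37 and 15.8 CPM (3.25 ± 0.43, 9.54-fold, adjusted p 0.000882; it overlaps Mir1907).

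Imprinted growth genes were lower in epidermis for 13 of 18 tested and higher for 0 (median -2.01), although the 13 became 6 without dermis replicate 1, 7 without dermis replicate 2, and 8 without dermis replicate 3, without epidermis replicate 2 or without the filter. Mest, which overlaps Copg2, was at 121.5, 129.4 and 108.4 CPM in epidermis and at 1647.3, 1503.9 and 1585.9 CPM in dermis (-3.72 ± 0.17, 13.2-fold, adjusted p 2.08e-05). Cdkn1c, the cell cycle inhibitor p57, was at 93.3, 96.5 and 114.3 CPM against 694.1, 686.4 and 724.3 CPM (-2.79 ± 0.16, 6.92-fold, adjusted p 2.74e-05). Replicates were close for both genes. Igf2 varied more in epidermis, at 773.0, 717.4 and 2154.3 CPM against 4566.0, 3839.0 and 4054.9 CPM in dermis (-1.77 ± 0.43, adjusted p 0.0174), and was not called without dermis replicate 1 or 2 (adjusted p up to 0.0628) or without the filter (0.0507). Dlk1, at 9.47, 30.0 and 293.4 CPM in epidermis, was again highest in replicate 3 (-4.03 ± 1.17, adjusted p 0.0349), with a log2 fold change of -6.49 without that library and no call without any 1 of the other 5 (adjusted p up to 0.0912) or without the filter (0.14). H19, transcribed beside Igf2 from the other parental copy, did not pass, at 2417.3, 2177.5 and 3803.8 CPM against 3271.5, 3806.8 and 3900.0 CPM (-0.39 ± 0.23, adjusted p 0.236).

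Hox genes, which mark the position of cells along the trunk, were called about as often as other genes. Of 28 tested, 7 were higher and 2 lower in epidermis, near the 34.7% of all genes called. The median of groups 6 to 13, -0.26, turned to 0.21 under raw totals. Hoxa7 was at 132.4, 118.7 and 90.0 CPM in epidermis and at 6.81, 2.47 and 6.38 CPM in dermis (4.42 ± 0.41, 21.4-fold, adjusted p 0.000158), and Hoxa5, which overlaps Hoxa3, was 21.7-fold higher (adjusted p 0.000397). Hoxd8 was at 13.7, 7.38 and 6.28 CPM against 40.1, 34.9 and 32.8 CPM (-1.98 ± 0.39, adjusted p 0.00565). Hoxc8 was at 89.7, 73.1 and 59.8 CPM in epidermis and 67.0, 61.3 and 74.5 CPM in dermis (0.13 ± 0.21, adjusted p 0.669). The 4 higher genes of groups 6 to 13 became 2 without epidermis replicate 2 or 3 or dermis replicate 1 or 2, the 1 lower gene became 4 without epidermis replicate 1 and 3 without epidermis replicate 2, and the 1 lower gene of groups 1 to 5, Hoxd3 (adjusted p 0.0396), was not called without epidermis replicate 3 or any 1 dermal replicate (up to 0.205), under raw totals (0.0605) or with all 12 RNA libraries (0.0761).

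Genes of S phase and mitosis moved in both directions. Of 30 tested, 4 were higher and 6 lower in epidermis, near the background, and under raw totals 12 were higher and 1 lower. Mki67, the Ki-67 proliferation marker, was at 1512.5, 2113.1 and 1712.0 CPM in epidermis and at 453.2, 427.0 and 505.2 CPM in dermis (1.95 ± 0.18, 3.85-fold, adjusted p 0.000173). Ube2c, a ubiquitin-conjugating enzyme gene of mitosis, was at 8.87, 22.0 and 11.6 CPM against 87.6, 110.4 and 98.8 CPM (-2.79 ± 0.35, 6.91-fold, adjusted p 0.00069). Top2a overlapped between the tissues, at 420.5, 705.3 and 485.6 CPM in epidermis and 413.2, 623.6 and 475.2 CPM in dermis (0.09 ± 0.24, adjusted p 0.799). The 6 lower genes became 3 without epidermis replicate 3 or dermis replicate 2 or 3. Of 13 tested glycolysis genes, 3 were higher and 5 lower in epidermis, against 16.5% and 18.2% of all genes tested (4 higher and 3 lower under raw totals). The glucose transporter gene Slc2a1 was at 271.6, 213.8 and 658.4 CPM against 55.5, 47.5 and 55.8 CPM (2.85 ± 0.43, 7.2-fold, adjusted p 0.00236), and the hexokinase gene Hk2 was 3.38-fold higher (adjusted p 0.00236). Hk1, another hexokinase gene, and Ldha ran the other way, with Ldha at 224.7, 205.6 and 152.0 CPM in epidermis and 424.9, 587.4 and 495.6 CPM in dermis (-1.37 ± 0.20, adjusted p 0.00146). The median of the 18 tested genes of glycolysis and hypoxia, -0.24, turned to 0.20 under raw totals.

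Markers of several other cell types summed higher in the dermal libraries, and in epidermis replicate 1 the macrophage, erythroid, endothelial and Merkel cell lists were all at 0. Of 10 tested macrophage and immune markers 8 were lower in epidermis, and 2 to 5 were called when epidermis replicate 3 (5), dermis replicate 1 (4), dermis replicate 2 (3) or dermis replicate 3 (2) was left out. Their summed level was 0 to 22.8 CPM in epidermis and 79.1 to 141.9 CPM in dermis. Mrc1, a receptor of tissue macrophages, was at 0, 1.38 and 0 CPM in epidermis and at 37.3, 25.2 and 35.9 CPM in dermis (-5.93 ± 1.08, adjusted p 0.00432). Erythroid markers summed to 0 to 4.55 CPM in epidermis and to 229.0, 1096.4 and 1570.4 CPM in the dermal replicates. Hbb-y accounted for most of it, at 176.3, 945.9 and 1253.9 CPM in dermis (-9.74 ± 1.08, adjusted p 0.000736, but 0.255 with limma voom). Endothelial markers summed to 0 to 33.8 CPM and 59.3 to 67.6 CPM, and 1 of 8 tested passed, Erg (-4.32 ± 1.20, adjusted p 0.0263), which was not called without epidermis replicate 3 or any 1 dermal replicate (up to 0.103). Neuronal markers summed to 9.27 to 34.2 and 49.5 to 79.9 CPM, and smooth muscle and pericyte markers to 134.3 to 199.2 and 257.6 to 281.7 CPM. Melanocyte markers overlapped, at 4.03 to 21.8 and 20.8 to 33.0 CPM, and none of the 5 tested passed. Schwann and neural crest markers overlapped in their sum, at 126.4 to 174.3 and 156.6 to 208.0 CPM. In epidermis most of that sum was Erbb3, described with the EGF receptors. Of 3 tested Schwann and neural crest markers, 1 was higher and 1 lower in epidermis, so the equal sums do not mean equal levels of each gene. Skeletal muscle markers overlapped too, at 0.202 to 12 and 5.09 to 12.1 CPM. Merkel cell markers reached 9.80 CPM in epidermis and 1.40 CPM in dermis, and none of the 6 was tested. The part of these cells in the dermal differences above was not tested.

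Cartilage markers were the list of another cell type that was higher in epidermis, summing to 167.5 to 323.7 CPM against 20.5 to 98.8 CPM. Most of this was Sox6, at 125.9, 184.2 and 182.0 CPM in epidermis and at 0.464, 0.165 and 0.848 CPM in dermis (8.20 ± 0.46, 293.4-fold, adjusted p 2.58e-05). Of 7 tested cartilage markers, 2 were higher and 2 lower in epidermis, against 16.5% and 18.2% of all genes tested. Both counts became 1 without epidermis replicate 3, and the 2 lower became 0 without dermis replicate 1 or 3. Not every member is named here. Of the cartilage matrix genes, Col2a1 did not pass and Col9a1 went the other way from Sox6. Col2a1 was at 15.7, 39.3 and 5.34 CPM in epidermis and 4.44, 1.65 and 13.9 CPM in dermis (adjusted p 0.221), and Col9a1 was lower in epidermis (-4.92 ± 1.38, adjusted p 0.0249), though not without dermis replicate 1 or 3 (up to 0.125).

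Immediate early and heat shock genes, which dissociation and sorting can induce, were lower in epidermis for 12 of 18 tested (7 without dermis replicate 2, dermis replicate 3 or the filter) and higher for 1 (median -2.11). Their sum was 670.6 to 1712.3 CPM in epidermis and 3410.7 to 4666.8 CPM in dermis. Nr4a1 was at 2.42, 15.1 and 29.2 CPM in epidermis and 477.4, 252.0 and 625.7 CPM in dermis (-4.84 ± 0.80, 28.7-fold, adjusted p 0.00383), and Ier2 at 24.0, 33.9 and 36.8 CPM against 170.0, 143.2 and 256.2 CPM (-2.59 ± 0.28, adjusted p 0.000331). These levels move with the tissue, and the part of cell handling in them was not tested.

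RNA classes with and without poly(A) tails were counted apart, since the selection step differed between the tissues. Replication-dependent histones, whose messengers end in a stem-loop and lack a poly(A) tail, were higher in epidermis for 39 of 49 tested and lower for 0 (median 4.50), and summed to 2929.4 to 3672.8 CPM against 54.3 to 232.4 CPM. Hist2h2bb was at 568.7, 623.6 and 488.5 CPM in epidermis and at 0.309, 1.48 and 0.950 CPM in dermis (9.31 ± 0.47, 636.2-fold, adjusted p 2.39e-05), and reads of near-identical histone copies may be split between genes. Structural RNAs were higher for 9 of 42 tested and for 19 of 70 without epidermis replicate 1. With all 6 libraries, 16.5% of all genes tested were called higher. The 1 lower member was Rn45s, at 36902.3, 44506.1 and 38847.8 CPM in epidermis and 114076.2, 428936.4 and 216795.4 CPM in dermis (-2.66 ± 0.45, adjusted p 0.00311). Rpph1, the RNA of RNase P, was at 661.6, 1758.6 and 1879.4 CPM against 7.84, 14.6 and 14.5 CPM (6.86 ± 0.54, adjusted p 0.000159). Ribosomal protein genes went the other way, with 60 of 77 tested lower and 1 higher in epidermis (median -1.32), or 44 lower and 4 higher under raw totals. Rpl28 was at 189.4, 235.0 and 217.1 CPM in epidermis and at 564.8, 708.6 and 726.4 CPM in dermis (-1.64 ± 0.17, adjusted p 0.000303). Leaving all RNAs known to lack poly(A) tails out of the fit left 4450 genes called, 2113 higher and 2337 lower. Whether these classes differ by tissue or by RNA selection cannot be told apart.

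**Figure D5:**
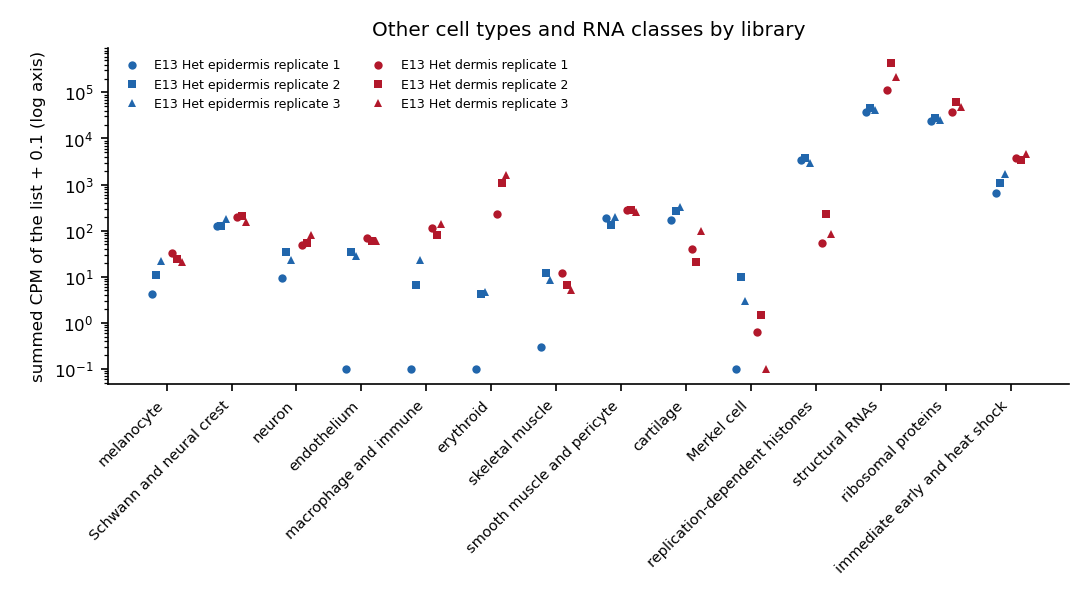
Summed level of each list of other cell types and of the RNA classes named above in the 6 libraries, in CPM with a small constant added, on a log axis. Blue points are epidermal and red points dermal libraries, and the shape gives the replicate. Macrophage and erythroid sums are higher in dermis (erythroid 229.0 to 1570.4 CPM), and cartilage markers and histones are higher in epidermis (histones 2929.4 to 3672.8 CPM).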

How the data were processed

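The authors deposited, for each RNA library, whole-number counts per gene symbol with 5 summary lines, per the file contents. TopHat2, Bowtie2, HTSeq and the build mm10 are listed, without versions or roles, per the submitters' processing notes. Whether counting used strand is not stated in those notes. Reads of overlapping or antisense genes may therefore be shared: of 585 named genes, 101 overlap another counted gene. The summary lines, left out of totals and tests, took 48.8% to 59.6% of entries in epidermis and 20.2% to 21.6% in dermis. Of 23432 symbols, 21570 matched RefSeq genes of GRCm38.p6 by symbol and 1687 by a synonym. ATAC and ChIP samples were not analysed here.

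The 6 libraries were fitted with edgeR 4.0.16 in R 4.3.3 (filterByExpr, TMM, robust quasi-likelihood F test, 4 residual degrees of freedom, common biological coefficient of variation 0.506). Dividing the size of a log2 fold change by the root of its F gave the SE. The script was tested on simulated data. The authors' counts were used as deposited. The members, the gene lists and the promoter motif were chosen with earlier results of these data known. Named genes are the sort genes and markers, the 15 genes with the largest change per direction (called, averaging 10 CPM or more in the higher tissue, no overlap of libraries, no predicted or clone name, with a poly(A) tail), up to 6 called members per list and direction and 3 that did not pass, and every member of the signalling, collagen and basement membrane lists. Zeb1, Zeb2, Snai1, Prrx1, Krt5, Krt8 and Krt18 fall outside this rule and were named after their values were seen. Alternatives were DESeq2 1.42.0, limma 3.58.1 voom, RLE, upper-quartile and raw-total scaling, no filter, a filter at 5 CPM on average, a 2-fold threshold, all 12 RNA libraries in 1 fit, leaving out each library, a replicate block, a fit without non-polyadenylated RNAs, and dermal counts thinned to epidermal depth. A few list members are counted but not reported here by name.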

Additional observations from a re-analysis of the deposited data

How the results depend on the processing

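The number of genes called was 5589 with DESeq2, 5680 with limma voom, 4622 with RLE, 4579 with upper-quartile scaling, 4350 without the filter and 4527 with thinned dermal counts, all within 1.5 times the 4504 reported. Testing against a 2-fold change left 1797 called, 860 higher and 937 lower. Raw totals left 1438 lower. Without 1 library, 2934 (without dermis replicate 3) to 5269 (without epidermis replicate 1) genes were called, 1455 to 2431 of them higher and 1331 to 2838 lower. Lower genes numbered 1509, 1331 and 1479 without dermis replicates 1, 2 and 3. The cause was not tested, beyond fewer samples in each such fit. No named gene reversed its call under any of these alternatives, and 292 of 365 named genes called kept the call whichever library was left out. Replicate numbers share only a number: deviations of same-numbered libraries correlated at 0.0125, -0.0275 and 0.0158. With a replicate block 3464 genes were called, 1627 higher and 1837 lower, and 41 named genes lost their call, none reversing. Structural RNAs called higher fell from 9 to 4 of 42 with the block. Medians of lists that change sign are the Wnt (from -0.03 to values between 0.01 and 0.37), Notch, guidance, Hox 6 to 13 (-0.26 to 0.21 under raw totals and 0.16 without dermis replicate 2), glycolysis and melanocyte (-0.45 to 1.08 with voom) lists. Depth limits genes with few counts in a tissue, whose ratios carry wide counting intervals.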
